A study of Arabidopsis thaliana with 7 samples.

Results

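The 10 enzymes described here turn the amino acid tryptophan into indole glucosinolates and into camalexin in Arabidopsis thaliana. They were taken as the probes whose RefSeq transcript belongs to a fixed list of 10 loci, and 12 probes matched, of 43603 probes on the array. All 10 loci had a probe, out of 25347 genes with one, and all 10 entered the fit across 20509 genes. The loci are AT4G39950 (CYP79B2), AT2G22330 (CYP79B3), AT4G31500 (CYP83B1), AT2G20610 (SUR1), AT1G24100 (UGT74B1), AT1G74100 (SOT16), AT5G57220 (CYP81F2), AT2G30750 (CYP71A12), AT2G30770 (CYP71A13) and AT3G26830 (PAD3). They were chosen by their place in the pathway with the processed signals and detection flags of the same genotype comparison already known, so the difference of each enzyme between the genotypes is given as a description and carries no test.

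RNA came from whole seedlings of accession Columbia-0, aged 3 weeks, and was measured on 7 single-colour Agilent arrays. The 4 arrays of the first group came from plants with 35S:MYB106VP16, in which MYB106, a MIXTA-like MYB factor of the epidermis, is fused to the VP16 activation domain of a virus and driven by the 35S promoter, which is active in most plant tissues. The 3 arrays of the second group came from wild type, and both groups shared the accession, the age and the MS agar with 1% sucrose. Both were also grown under 16 h light and 8 h dark at 23 °C. The sources used here do not say how many transgenic lines were used. Several seedlings of a plate went into each extraction, and no label says that the replicates were grown apart, so the p-values below rest on a spread between samples that may be technical. In whole seedlings, fewer cells of a type and less RNA per cell cannot be told apart.

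Cruciferous plants store glucosinolates, sulfur-containing glucosides, and cleave them when tissue is damaged. Camalexin is the phytoalexin of Arabidopsis, made on attack by microbes. The routes share their first step: CYP79B2 and CYP79B3 oxidise tryptophan to indole-3-acetaldoxime. CYP83B1, the C-S lyase SUR1, the glucosyltransferase UGT74B1 and the sulfotransferase SOT16 then build the core indole glucosinolate, and CYP81F2 hydroxylates its indole ring. On the other branch CYP71A12 and CYP71A13 dehydrate the aldoxime to indole-3-acetonitrile, and PAD3, also called CYP71B15, catalyses the closing steps to camalexin.

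MYB106 was high on all 4 transgenic arrays, and the shares of transgene and native gene in its signal are not known. It had relative signals of 8.48, 9.80, 11.1 and 5.91 in 35S:MYB106VP16, against 0.173, 0.138 and 0.188 in wild type, where a relative signal is the processed signal divided by the 75th percentile of its array. Replicates are given in the order 1 to 4 and 1 to 3 throughout. Of the genes tested, 28.1% were called higher and 24.8% lower in 35S:MYB106VP16 (limma, Benjamini-Hochberg adjusted p under 0.05), and the median log2 change was 0.02. Higher genes made up 53.2% of those called, against 66.6% with median scaling, 76.2% in the authors' deposited table and 6.8% with scaling to spike-in transcripts. The median log2 change over all genes was 0.14, 0.23 and -0.62 in those 3 settings, so small differences below read against the 75th percentile scaling. Spike-in scaling rests on 7 bright spike-in probes, whose own log2 changes between the genotypes ran from 0.2 to 0.88, with a median of 0.56. Each genotype filled a slide of its own, and slide and genotype cannot be told apart. Markers of leaf (4 of 4) and root (5 of 5) were well above background on all 7 arrays, as were 3 of 4 flower markers. The summed root signal was 2.30 to 3.50 in 35S:MYB106VP16 against 1.78 to 2.72 in wild type, with 3 root markers called higher, the summed leaf signal was 229 to 290 against 251 to 281, and the summed flower signal 0.996 to 1.74 against 0.533 to 1.30. PI, called higher, carried the flower sum, while AP1, AP3 and AG had log2 changes of -0.39, -0.66 and -1.52 and were not called. The part of tissue make-up in the results was not tested. Of the 2 seed markers, CRA1 was detected on 4 of 4 transgenic and 1 of 3 wild-type arrays and was called higher, and SESA1 was at background level on all 7 arrays.

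The enzymes did not move as a block. The early glucosinolate steps were lower in 35S:MYB106VP16, the late steps SOT16 and CYP81F2 overlapped with wild type, and the camalexin branch ran from a large excess of CYP71A13 to no clear difference of PAD3. In the fit over all genes 1 of the 10 was called higher, against 28.1% of all genes, and 3 were called lower, against 24.8%. The groups did not overlap for 1 enzyme that was higher and 4 that were lower, against 30.4% and 27.2% of all genes. The 1 higher enzyme in both counts was CYP71A13, which entered the fit through its transgenic arrays alone and was below detection in wild type. The median log2 change of the 10 was -0.34, against 0.02 over all genes. Nothing is read from these counts, because the list was chosen with the same contrast known.

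**Figure D1:**
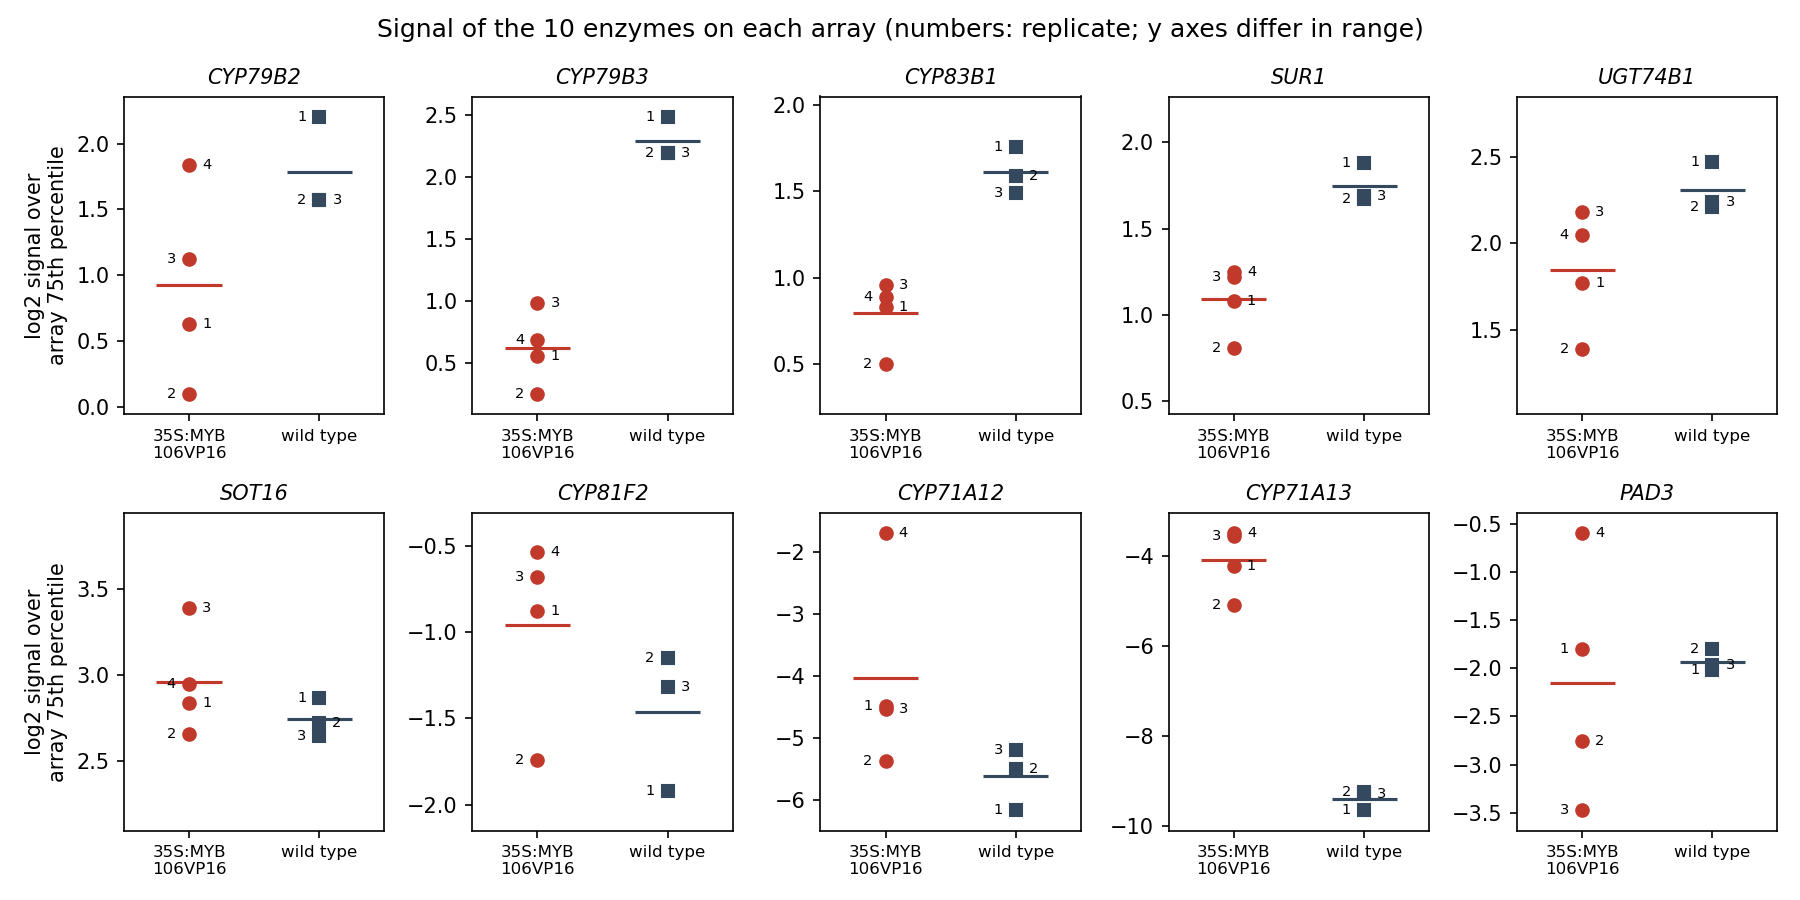
Log2 relative signal (y axis, scaled as above) of the 10 enzymes, a panel each, with 35S:MYB106VP16 (circles, n = 4) left of wild type (squares, n = 3). Horizontal bars are group means, small numbers are replicates, and the y axes differ in range; in CYP71A13 all 4 transgenic arrays lie above the wild-type values, which are below detection, while in PAD3 they spread on both sides of it.

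The entry step was lower. CYP79B3 had relative signals of 1.47, 1.19, 1.97 and 1.6 in 35S:MYB106VP16, against 5.59, 4.56 and 4.55 in wild type. Every transgenic array lay below every wild-type array, a gap wider than the spread inside either group. The log2 difference was -1.67 ± 0.17 (SE), which is 3.19-fold lower, and it had the largest size among the enzymes that were lower.

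CYP79B2, the other entry enzyme, was read by 2 probes. The brighter probe gave 1.54, 1.07, 2.17 and 3.58 in 35S:MYB106VP16, against 4.60, 2.97 and 2.97 in wild type. Replicate 4 of 35S:MYB106VP16 reached into the wild-type range and the other 3 arrays did not. The difference was -0.86 ± 0.39 (SE) on the log2 scale, and -1.17 without that replicate. The other probe gave 0.971, 0.728, 1.13 and 1.82 in 35S:MYB106VP16, against 3.21, 2.04 and 2.11 in wild type, with no overlap and a log2 difference of -1.13 ± 0.32 (SE). Both probes thus put CYP79B2 lower, and they differed in whether the groups touched.

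Within an array the scaling cancels, so a ratio of a pair of enzymes does not depend on it. CYP79B3 relative to CYP79B2 was lower in 35S:MYB106VP16, with log2 ratios of -0.58, -0.36, -0.64 and -1.67, against -0.22, 0.11 and 0.11 in wild type, each taken relative to the wild-type mean. The groups did not overlap, and the lowest value was replicate 4. With the other CYP79B2 probe the ratio was -1.21 to -0.22 in 35S:MYB106VP16 and -0.22 to 0.14 in wild type, so that the groups met, and the separation depends on the probe.

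Next come the core enzymes of the glucosinolate branch. CYP83B1, which oxidises the aldoxime and so commits it to glucosinolates, had relative signals of 1.78, 1.41, 1.95 and 1.86 in 35S:MYB106VP16, against 3.39, 3.01 and 2.80 in wild type. The groups were clearly apart, and the difference was -0.82 ± 0.13 (SE) on the log2 scale, 1.76-fold lower. SUR1, the lyase that frees the thiohydroximate, had 2.12, 1.76, 2.33 and 2.38 in 35S:MYB106VP16, against 3.67, 3.17 and 3.23 in wild type. It did not overlap either, and was 1.57-fold lower (log2 -0.65 ± 0.12 SE).

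UGT74B1, which adds the glucose, had relative signals of 3.41, 2.62, 4.53 and 4.15 in 35S:MYB106VP16, against 5.54, 4.63 and 4.72 in wild type. The groups did not overlap, but the highest transgenic array and the lowest wild-type array nearly met. Its log2 difference was -0.46 ± 0.19 (SE).

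SOT16, which adds the sulfate that completes the core structure, broke the run. Its relative signals were 7.15, 6.31, 10.5 and 7.73 in 35S:MYB106VP16, against 7.33, 6.58 and 6.27 in wild type. The groups overlapped, and only replicate 3 of 35S:MYB106VP16 stood well clear of wild type. The log2 difference was 0.21 ± 0.17 (SE); it was 0.42 in a fit of the authors' deposited table and -0.43 with spike-in scaling, so its direction rests on the scaling.

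Ratios to CYP83B1 on the same array ordered these steps without any scaling. SUR1 over CYP83B1 was 0.12 to 0.22 in 35S:MYB106VP16 and -0.06 to 0.07 in wild type (log2, relative to the wild-type mean). UGT74B1 over CYP83B1 was 0.20 to 0.52 in 35S:MYB106VP16 and -0.07 to 0.06 in wild type. SOT16 over CYP83B1 was 0.87 to 1.29 in 35S:MYB106VP16 and -0.02 to 0.03 in wild type, a mean excess of 2.04-fold. None of the 3 ratios overlapped between the genotypes, and their means of 0.16, 0.36 and 1.03 increase in the order in which these 3 enzymes act. Not every step between them was compared. GGP1, which acts between CYP83B1 and SUR1 and is described below, had a log2 change of -1.2. That is lower than -0.82 for CYP83B1 and -0.65 for SUR1, so the increase does not extend to GGP1. These differences between genes were not tested. The order is a description, as the loci were chosen with these differences known.

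CYP81F2 hydroxylates the finished indole glucosinolate, a step needed for its role in defence. It had relative signals of 0.544, 0.300, 0.626 and 0.689 in 35S:MYB106VP16, against 0.264, 0.450 and 0.401 in wild type. Replicate 2 of 35S:MYB106VP16 lay inside the wild-type range and the other 3 above it. The log2 difference was 0.51 ± 0.31 (SE), 0.77 without replicate 2 and -0.14 with spike-in scaling. Its ratio to CYP83B1 was 0.84 to 1.65 in 35S:MYB106VP16 and -0.61 to 0.34 in wild type on the log2 scale, with no overlap.

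**Figure D2:**
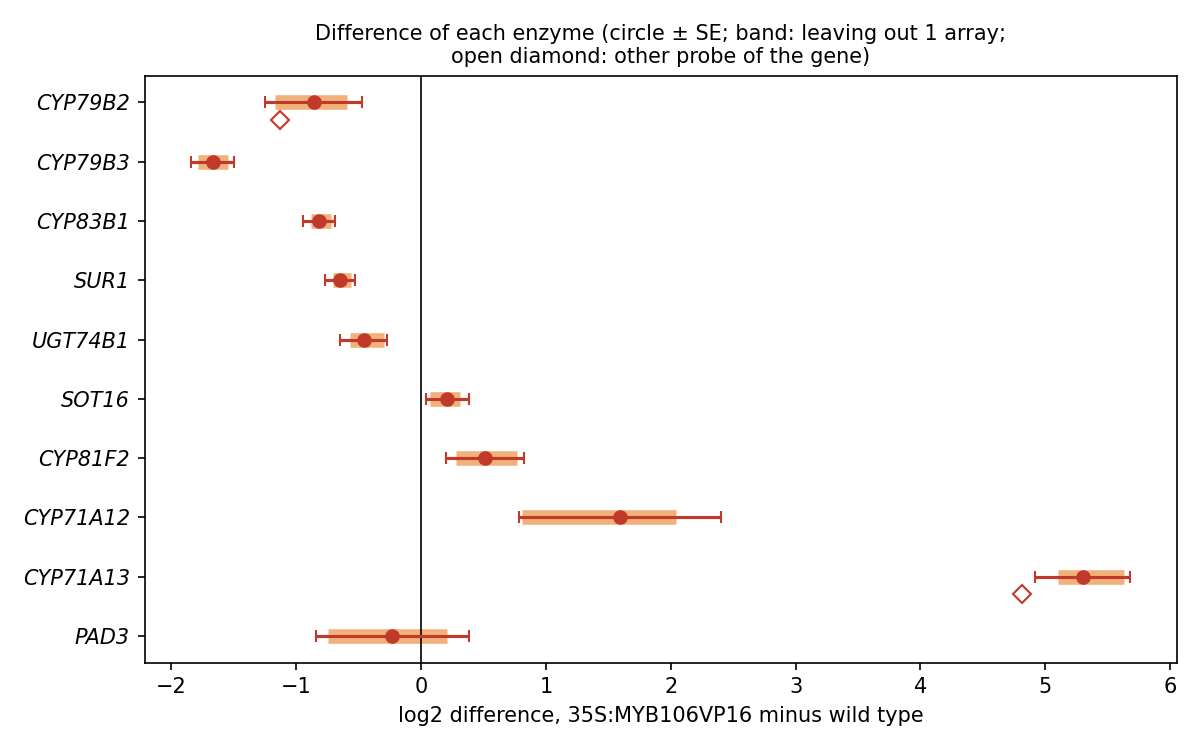
Log2 difference, 35S:MYB106VP16 minus wild type, (x axis) for each enzyme in the order of the pathway (y axis), as circles ± SE, with bands for the range when 1 array is left out and open diamonds for the other probe of CYP79B2 and CYP71A13. The bars of CYP71A12 and PAD3 are the longest, the band of PAD3 crosses 0, and the CYP71A13 values are fitted against a wild-type level below detection.

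On the camalexin branch the largest difference of the 10 belonged to CYP71A13, which makes indole-3-acetonitrile. Its brighter probe had relative signals of 0.0539, 0.0293, 0.0851 and 0.0887 in 35S:MYB106VP16, against 0.00125, 0.00166 and 0.0016 in wild type. It was well above background on all 4 transgenic arrays and on none of the 3 wild-type arrays, where its processed signals were 3.13, 4.13 and 4.29, where the lowest detected signals were 12.2, 12 and 15.3. The wild-type level is thus a bound, and CYP71A13 was at least 11.5-fold higher in 35S:MYB106VP16, where each wild-type array enters at its lowest detected signal, since the probe lay under that. The other probe gave at least 7.62-fold, with 0.0366, 0.0179, 0.0601 and 0.0584 in 35S:MYB106VP16, against 0.00125, 0.00135 and 0.00159 in wild type. The fitted log2 difference of 5.30 rests on undetected wild-type signals and is no bound; it was 1.4 with normexp background correction, which adds an offset of 50 to such dim signals.

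CYP71A12 catalyses the same dehydration as CYP71A13 and lies close to it on chromosome 2, with 2 annotated genes between them. Its relative signals were 0.0448, 0.0241, 0.0432 and 0.307 in 35S:MYB106VP16, against 0.0140, 0.0221 and 0.0276 in wild type, all well above background. Replicate 4 stood far above the other 3 transgenic arrays, with a processed signal of 782, while replicate 2 had 68.9 and wild type 35.1 to 73.8. Replicate 2 lay inside the wild-type range. The log2 difference was 1.59 ± 0.81 (SE), or 3.01-fold, and 0.81 without replicate 4, or 1.76-fold; with normexp it was 0.99. Probe sequences were not used here, and signal shared between this close pair of paralogs could not be assessed.

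PAD3 makes camalexin itself, and its mean barely differed. It had relative signals of 0.287, 0.148, 0.0901 and 0.658 in 35S:MYB106VP16, against 0.246, 0.288 and 0.255 in wild type. The transgenic arrays lay on both sides of the tight wild-type values and spanned 7.30-fold, against 1.17-fold in wild type. The log2 difference was -0.23 ± 0.61 (SE), -0.75 without replicate 4 and 0.21 without replicate 3, so it has no stable sign. An equal PAD3 level is not shown by this, given an SE of that size.

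**Figure D3:**
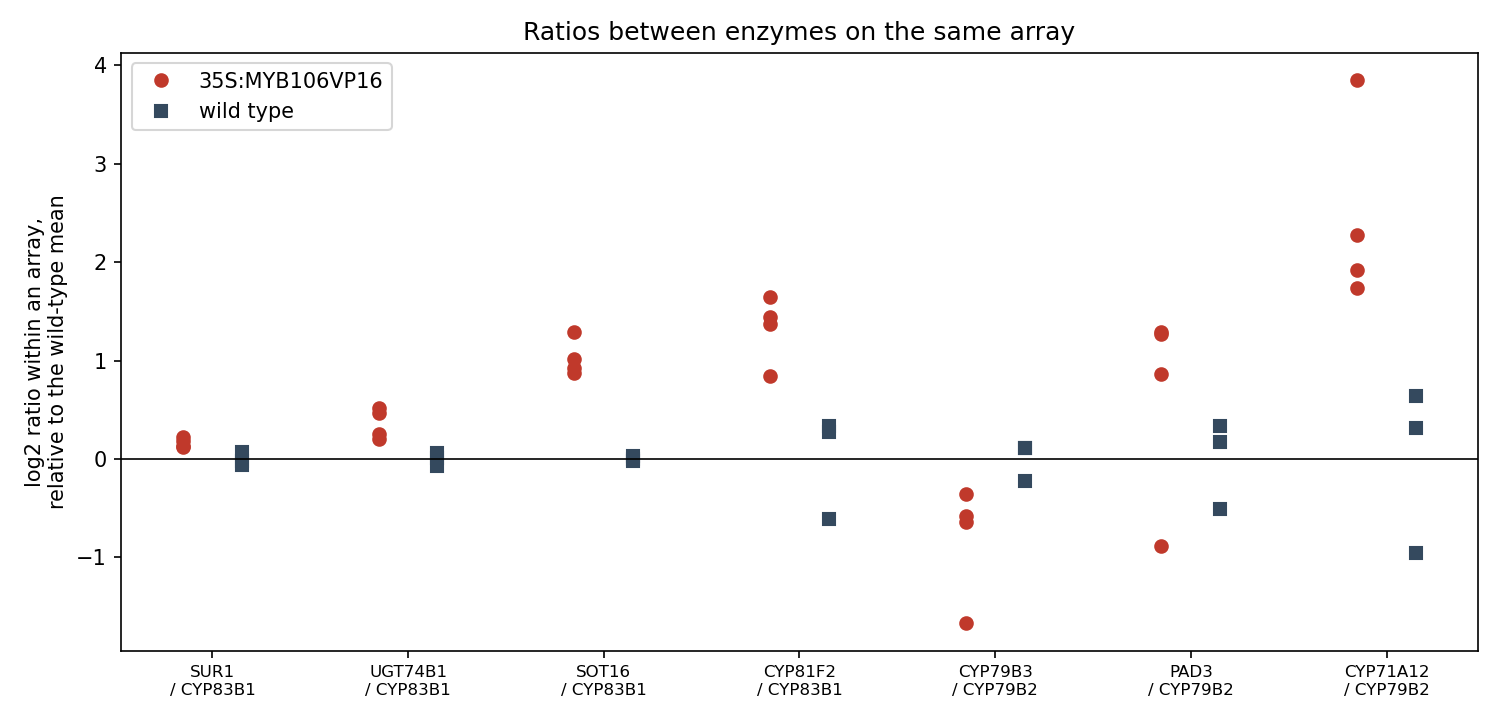
Log2 ratio of a pair of enzymes on the same array, relative to the wild-type mean of that ratio (y axis), for 35S:MYB106VP16 (circles, n = 4) and wild type (squares, n = 3). SUR1, UGT74B1 and SOT16 over CYP83B1 lie increasingly above wild type, and PAD3 over CYP79B2 (brighter probe) spreads from -0.88 to 1.29.

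The spread between arrays of 1 genotype comes from the same signals that were known when the list was chosen, so it is a description too. In 35S:MYB106VP16 the standard deviation of log2 signal was 1.6 for CYP71A12, 1.24 for PAD3, 0.75 for CYP71A13 and 0.74 for CYP79B2, against a median of 0.15 over all genes tested. Of all genes, 0.3% had a larger transgenic spread than CYP71A12 and 0.6% a larger one than PAD3. SUR1 and CYP83B1 were the steadiest, with 0.20 and 0.21. All 10 enzymes lay above the median spread in 35S:MYB106VP16. In wild type the median was 0.10, and all 10 again lay above it, though CYP71A13 was not detected there. CYP71A12 had 0.5, CYP81F2 0.41 and CYP79B2 0.36, with 3.4%, 5% and 6.2% of all genes larger. PAD3, SUR1 and SOT16 stood barely above the wild-type median at 0.12 each.

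The transgenic arrays differed in a shared way. Replicate 2 was the lowest of the 4 for 9 of the 10 enzymes, PAD3 being the exception, whereas 27.1% of all genes were lowest on it. Replicate 4 was the highest for 6 enzymes, and for 35% of all genes. Replicate 2 was lowest for 9 enzymes also with median, quantile and spike-in scaling and with normexp, and for 7 in the deposited processed signals without scaling; the share of all genes lowest on it ran from 4.35% (no scaling) to 35% (normexp). The count of enzymes highest on replicate 4 depended more on the scaling, with 4 under spike-in scaling, 5 with normexp and 8 without scaling. In wild type, replicate 1 was the highest for 6 enzymes, against 44.6% of all genes, and the lowest for 4, against 35%, shares near those of all genes; 1 of the 4 is CYP71A13, whose wild-type values were below detection and have no order. No label explains the differences between replicates.

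By likeness of pattern, the root mean square difference of log2 values centred on each gene over the 7 arrays, CYP83B1 and SUR1 were the closest pair among the 10, at 0.0944. UGT74B1 was next to SUR1 at 0.145, while CYP71A13 was 2 from its nearest fellow, CYP71A12. Among 9000 genes with a symbol, those nearest to CYP79B2 were LTP3, a lipid transfer protein (0.202), and NAS2, a nicotianamine synthase (0.236). Nearest to CYP81F2 were ATOBGM (0.169) and the phospholipase PLA2A (0.190). Nearest to CYP71A13 were DIR5, a dirigent protein (0.512), and M17, a late embryogenesis abundant protein (0.567), neither of them close; for CYP71A13 the measure includes its undetected wild-type values. The measure includes the genotype difference of each gene.

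In the RefSeq gene order of TAIR10.1, CYP79B2 lies beside AKN2, a kinase that makes the sulfate donor for sulfotransferases, and SOT16 lies beside SOT18, a sulfotransferase of aliphatic glucosinolates. These neighbours differed in size from the enzymes: AKN2 had a log2 change of -2.52 beside -0.86 for CYP79B2, and SOT18 had -0.78 beside 0.21 for SOT16.

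Genes around the 10 enzymes were compared by limma in the same fit, and their lists were also written with earlier results known. All counts that follow stand against 28.1% higher and 24.8% lower over all genes tested. Of 16 genes that regulate, modify, supply or transport indole glucosinolates, 9 fell, none rose and 7 were not called, with a median log2 change of -0.51. The list is not confined to the indole branch, as AKN2 makes the sulfate donor for sulfotransferases in general. Its 9 falls are therefore no count of indole-specific genes. Among its MYB factors, P450s and IGMT methyltransferases, CYP81F4, IGMT1 and IGMT5 fell. MYB34, MYB51, MYB122, CYP91A2, CYP81F3 and IGMT2 were not called. The other genes that fell were GGP1, GSTF9, APK, AKN2, GTR1 and GTR2. AKN2 had 0.747, 0.361, 1.00 and 0.796 in 35S:MYB106VP16, against 4.21, 3.69 and 3.81 in wild type, and was 5.72-fold lower (limma adjusted p = 0.000774). IGMT5, a methyltransferase, was 2.98-fold lower (limma adjusted p = 0.000898), and CYP81F4, a relative of CYP81F2 that hydroxylates another position of the ring, 2.47-fold (limma adjusted p = 0.000596). GGP1, which trims the glutathione conjugate between CYP83B1 and SUR1, was 2.29-fold lower (limma adjusted p = 0.000306; named after its value was seen, as are the MYB factors next). The MYB factors that activate indole glucosinolate genes were not called: MYB34 had a log2 change of -0.33 ± 0.16, MYB51 0.20 ± 0.13 and MYB122 0.22 ± 0.26 (SE; limma adjusted p = 0.113, 0.236 and 0.512).

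The aliphatic counterparts of the core enzymes, a list added after the data were seen, were lower in all 6 cases, with a median log2 change of -1.15. CYP79F1, the counterpart of CYP79B2 and CYP79B3, was 8.64-fold lower (limma adjusted p = 0.00117), with 1 wild-type value removed as an outlier spot. CYP83A1, the counterpart of CYP83B1, was 2.96-fold lower (limma adjusted p = 0.00163) and SOT17 2.50-fold (limma adjusted p = 0.00545). Side by side, CYP83B1 stood at -0.82 and CYP83A1 at -1.57, and SOT16 at 0.21 and SOT17 at -1.32; these differences between genes were not tested.

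**Figure D4:**
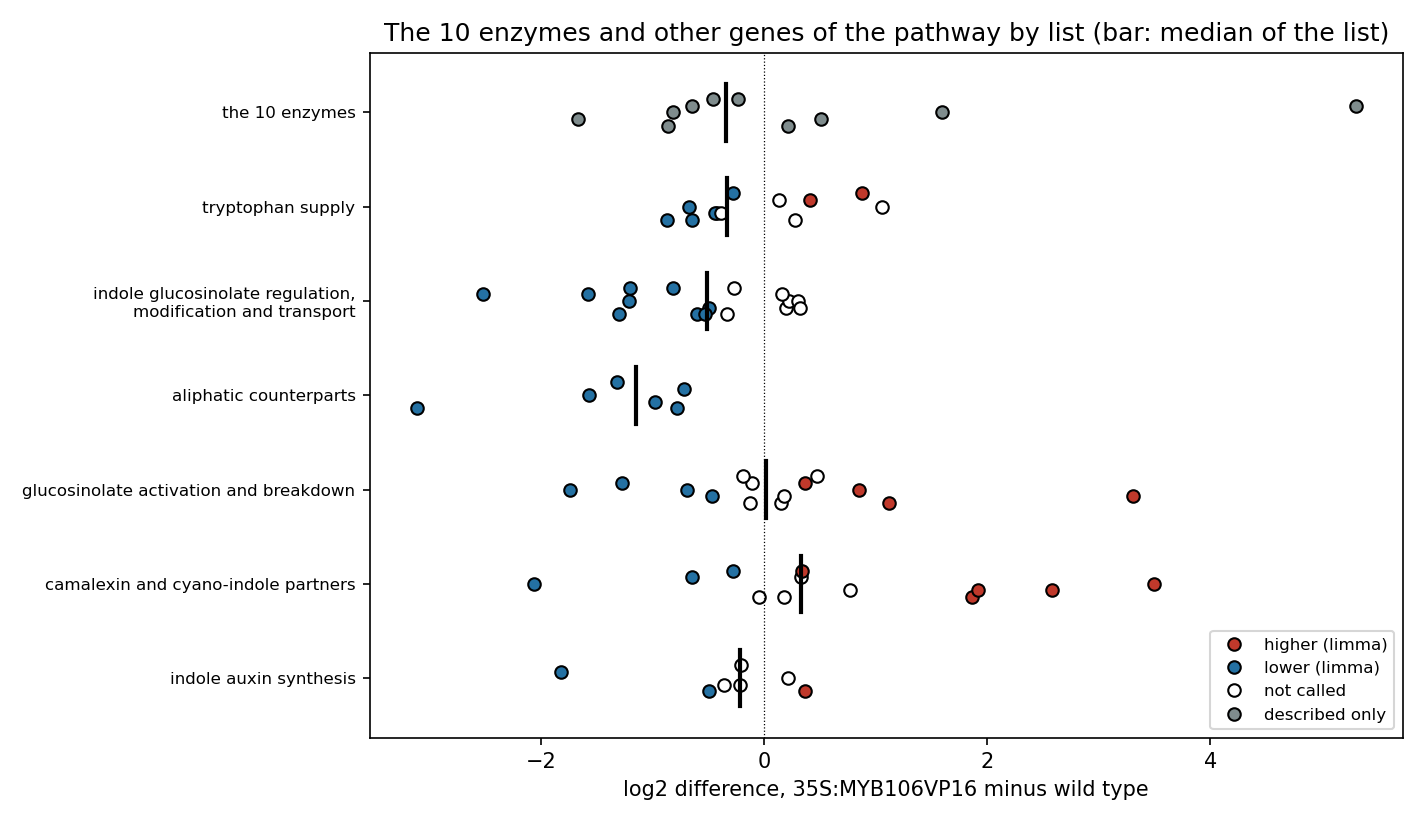
Log2 difference, 35S:MYB106VP16 minus wild type (x axis), for the 10 enzymes (grey, described only) and the tested genes of 6 lists, coloured by limma call, with a bar at each median. The 6 aliphatic counterparts are all lower, and the camalexin partners run from -2.06 to 3.49.

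Of 12 genes of tryptophan supply, 6 fell, 2 rose and 4 were not called, with a median log2 change of -0.33. ASA1, the feedback-regulated subunit of anthranilate synthase, was 1.83-fold lower (limma adjusted p = 0.000679) and PAI3, an isomerase of the pathway, 1.6-fold (limma adjusted p = 0.000498). TSA1 (AT3G54640), a tryptophan synthase subunit, reached 1.83-fold above wild type (limma adjusted p = 0.00474), and it was no longer called under the spike-in scale (limma adjusted p = 0.191). PAI1, PAI2 and PAI3 are close copies whose signals could not be separated here.

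Among 13 partners of camalexin and cyano-indole synthesis 12 were tested, of which 5 rose, 3 fell and 4 were not called. ABCG40, a transporter, was 11.2-fold higher (log2 3.49 ± 1.02 SE; limma adjusted p = 0.0234), with 0.0937, 0.135, 0.0365 and 1.12 in 35S:MYB106VP16, against 0.0127, 0.0161 and 0.0119 in wild type. Without replicate 4, its highest array, the log2 change was 2.52, and with normexp 2.16. It did not pass without any 1 of the wild-type arrays (limma adjusted p = 0.0532 to 0.0679). AT1G26380, an oxidoreductase of the cyano-indole route, was 5.97-fold higher (log2 2.58, limma adjusted p = 0.0109; log2 1.61 with normexp), and CYP71A27, a relative of CYP71A13, 4.17-fold lower (limma adjusted p = 0.000679). WRKY33, an activator of CYP71A13 and PAD3, had a log2 change of -0.65 ± 0.23 (SE; limma adjusted p = 0.05, just under the threshold, with overlapping groups; named after its value was seen).

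Of 14 genes of glucosinolate activation and breakdown, 4 rose, 4 fell and 6 were not called, shares near those of all genes (28.1% and 24.8%). All 4 that rose were nitrilases, namely NIT1 (2.18-fold), NIT2, NIT3 (1.8-fold) and NIT4 (1.29-fold, with overlapping groups). NIT2, a nitrilase that can act on indole-3-acetonitrile, had 28.7, 21.1, 31.6 and 29.1 in 35S:MYB106VP16, against 2.18, 3.69 and 2.60 in wild type, and was 9.91-fold higher (limma adjusted p = 8.97e-05). Its tandem relatives could share signal with it. BGLU18, a glucosidase, was 3.34-fold lower (limma adjusted p = 0.000772) and ESP, which diverts breakdown toward nitriles, 2.42-fold (limma adjusted p = 0.00155). Of 8 genes of indole auxin synthesis 7 were tested, of which 2 fell and 1 rose. YUC2, a monooxygenase, was 3.52-fold lower (limma adjusted p = 0.0028) and TAA1, an aminotransferase, 1.40-fold (limma adjusted p = 0.00419), though TAA1 did not pass in a fit of the authors' deposited table (limma adjusted p = 0.145). AMI1, an amidase, was 1.30-fold higher by its brighter probe (limma adjusted p = 0.00536), while its other probe was lower (log2 -0.34 ± 0.09 SE), and it stood at -0.27 with spike-in scaling.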

How the data were processed

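The authors extracted the deposited spot intensities with Agilent Feature Extraction 9.1.3.1, per the file headers and the submitters' processing notes. The flags (other columns of the same files) were used as deposited. Per the labels' protocols, Cy3 label was made from 1 µg of total RNA. The authors' deposited table holds the same intensities divided by a constant per genotype, 1042.5 for 35S:MYB106VP16 and 1237.6 for wild type (linear scale, no centring, column medians 0.331 to 0.438), and was an alternative only; no source used here says why.

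After removal of outlier spots and averaging of replicate spots, each signal was divided by its array's 75th percentile (2213 to 2858) and put on the log2 scale; 73.5% to 76.3% of probes were well above background, and none was saturated. The number of arrays limits the precision. Of 36022 probes with an accession, 34185 matched a gene of the RefSeq table of TAIR10.1. The probe with the highest mean stood for its gene, which entered the fit if 3 or more arrays detected that probe. The test was limma 3.58.1 in R 4.3.3, fitting genotype alone; the SE of a second probe of a gene comes from the same model over all probes. On data simulated for this comparison (20448 genes, 50 changed at each size) it recovered 42% of genes changed 1.5-fold and 80% at 2-fold, with 2 false calls. Far fewer genes changed there than were called here (28.1% higher and 24.8% lower), which alters the Benjamini-Hochberg adjustment. These rates therefore do not carry over to the real fit.

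The members and lists were chosen with earlier results of these data known. The genes named are the 10 enzymes, MYB106, the 3 called genes of each list with the largest absolute change (filled to 2 by smallest p) and the 2 genes nearest in pattern to CYP79B2, CYP81F2 and CYP71A13; any other was named after its value was seen. Promoter and protein sequences were not used here.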

Additional observations from a re-analysis of the deposited data

How the results depend on the processing

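The 17 counts and medians above were recomputed under 16 alternatives, and 245 of 272 values stayed within 1.5 times the count (the median within its spread between arrays). The cause of the other changes was not tested. By construction, spike-in scaling, median scaling and the authors' deposited table shift all genes of an array alike, outlier spots apart. The size of the shift differs between arrays, also within a genotype. With spike-in scaling 1067 genes were higher and 14594 lower, 6 enzymes were called lower and their median was -0.99; no tryptophan supply gene (0) was called higher, breakdown genes were 2 higher and 9 lower, camalexin partners 5 lower, auxin genes 0 higher and 5 lower, and AMI1 turned to -0.27. With the values the authors deposited, 2277 genes were lower and 2 enzymes called higher (SOT16 joined), with 3 tryptophan supply genes lower, 2 of the indole glucosinolate list higher, and 1 camalexin partner and 1 auxin gene lower. Median scaling gave 2 of the indole glucosinolate list higher and 1 camalexin partner lower, and quantile normalization 1 of the indole glucosinolate list higher. Requiring detection on all arrays removed CYP71A13, leaving 0 enzymes called higher and 1 of the indole glucosinolate list. Auxin genes called higher were 2 with no filter on dim probes and 0 with the mean over probes.

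Leaving out 1 array at a time gave 1 to 2 enzymes called higher, 0 to 1 of the indole glucosinolate list higher and 1 to 3 camalexin partners lower. Without 35S:MYB106VP16 replicate 2, 2 enzymes were called higher. Without wild type replicate 3, 1 camalexin partner was lower. Replicate numbers did not pair the arrays (correlations of deviations 0.18, -0.03 and -0.08 for numbers 1 to 3); with the number as a block, 4596 genes were higher and 4470 lower, 1 enzyme was called higher and 4 lower. No slide block could be fitted, because slide and genotype coincide. Of 304 values of the named tested genes, 297 kept direction and side of the threshold. Signal over background limits the CYP71A13 fold to a bound.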

Other observations

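A few genes outside the 10 enzymes had their highest transgenic signal on the array where CYP71A12 and PAD3 peaked, replicate 4 of 35S:MYB106VP16. They were picked for that array after their values were seen, so this shared peak carries no test. Of all genes tested, 35% were highest on it among the transgenic arrays, as were 6 of the 10 enzymes. CYP82C2, a P450 that hydroxylates a cyano-indole compound made from the same aldoxime, had relative signals of 0.00365, 0.00436, 0.00149 and 0.209 in 35S:MYB106VP16, against 0.00152, 0.00187 and 0.00145 in wild type. It was well above background on 1 of the 4 transgenic arrays and on none of the 3 wild-type arrays, so it did not enter the fit. ASB1, a subunit of anthranilate synthase, had 0.0152, 0.0102, 0.0159 and 0.0827 in 35S:MYB106VP16, against 0.00980, 0.0111 and 0.00971 in wild type. Its genotype difference was not called (limma adjusted p = 0.207), and it was the gene with a symbol nearest in pattern to CYP71A12, at a root mean square difference of 0.412 over the 7 arrays. AT1G26380 showed the same array on top, with 0.110, 0.0499, 0.0782 and 0.303 in 35S:MYB106VP16, against 0.0103, 0.0301 and 0.0185 in wild type. MYB106 itself was lowest of the 4 on that array, at 5.91 against 8.48 to 11.1 on the others. A link between its signal and the shared peak was not tested.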
